A study of Rattus norvegicus with 44 samples.

Results

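Cdh1 encodes E-cadherin, the adhesion protein that holds epithelial cells together. It was picked out of the dentate gyrus (DG) table because its value was higher in all older groups than in young rats. It was thus chosen by the difference from the young rats, which is described here and not tested. Cdh1 is 1 of 18347 genes of the table and 1 of the 15598 genes tested, those whose normalized values averaged at least 5. It was found by its symbol (ENSRNOG00000020151) and has 1 row. The symbol is also an alias of Fzr1, an activator of the anaphase-promoting complex, which is another gene with another identifier and was not used.

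The study asked how drugs that clear senescent cells act on brain aging. RNA of the DG, a sub-region of the hippocampus, was sequenced from male F344 rats (Fischer 344, an inbred strain), 1 library per rat. Young rats (YNG, n = 10) were 6 months old, and the deposited attributes list them as given vehicle. The older rats were 12 months old when treatment began and about 18 months old at tissue collection, while the labels give them as 12 months, and every older rat was dosed by mouth for 5 days in each of 8 cycles, with a final round after the behavioral tests. They received vehicle (AV, n = 12), 12 mg/kg of the BCL-2 family inhibitor ABT-263 (AA, n = 11), or the kinase inhibitor dasatinib at 1.2 mg/kg with the flavonoid quercetin at 12 mg/kg (ADQ, n = 11). The labels give the age alone, and the treatment came from the attributes that the authors deposited beside the values, matched by rat name. For this report the rats were split by number into a lower-numbered and a higher-numbered series (6 and 4 YNG, 6 and 6 AV, 5 and 6 AA, 5 and 6 ADQ). The labels name no such series. YNG rats are numbered apart from the older rats (V1 to V12), so nothing ties the YNG and older rats of a series together. No batch is named by the labels, and no treated rat has a number in the range of the higher-numbered AV rats.

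The library totals of normalized values ranged from 14298000 to 20580000, and the reads estimated from the value of 1 read from 10166600 to 24328400 per rat. Prox1, the transcription factor that marks dentate granule cells, was present in every rat, from 609 to 3811. Markers of the neighbouring CA1 field were also present in every rat, with a summed level from 2520 to 17630 in YNG, 2160 to 29160 in AV, 1976 to 43510 in AA and 2558 to 11780 in ADQ. Against YNG, 32.4% of all genes tested had an unadjusted p below 0.05 in the older rats (15.7% higher and 16.7% lower), the threshold used throughout. By the adjusted p, 14.9% were called (6.65% higher and 8.23% lower).

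E-cadherin is a classical cadherin. Its outer part binds the same protein on the next cell in the presence of calcium, and its inner tail holds p120-catenin and β-catenin, which connect through α-catenin to actin. Neurons rely mainly on other cadherins, chiefly N-cadherin. Around the brain, E-cadherin is known from the cells of the arachnoid barrier, and in peripheral nerve it joins the turns of a Schwann cell's own membrane in non-compact myelin. Its gene is repressed by SNAI, ZEB and TWIST transcription factors, and the protein is cut from the surface by ADAM10.

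In YNG, Cdh1 was low, and near the limit of detection in most rats. The values ranged from 0 to 21.4 with a median of 3.21, and the mean was 5.63 ± 6.84 (SD, n = 10). The 10 libraries together held 55 Cdh1 reads. V1 and V10 had no read, which allows a value of up to 3.36 and 4.51 (3 reads). The YNG rat V6 stood highest at 21.4 (24 reads), followed by V11 at 12.4 and V12 at 8.69, and the other 7 rats were at or below 4.997. Deviations of the Cdh1 value from whole reads were at most 0.0003 reads, so these are counts of reads scaled per library.

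All older groups lay higher. In AV the values ranged from 20.4 to 84.9 with a median of 34.01 (19 to 90 reads), and the mean was 41.2 ± 19.1 (SD, n = 12). In AA they ranged from 15.5 to 67.8 with a median of 22.8 (16 to 97 reads), and the mean was 30.2 ± 16.0 (SD, n = 11). In ADQ the range was 8.80 to 39.6 with a median of 28.9 (10 to 51 reads), and the mean was 28.03 ± 8.62 (SD, n = 11). Every older rat was above the YNG median, 33 of 34 were above the second-highest YNG rat, and 28 of 34 were above V6. The groups overlap through V6 and through the ADQ rat 3994, which at 8.80 lay below V6 and V11. The lowest AV rat, 4011 (20.4), was the only AV rat below V6, while 3 AA rats and 2 ADQ rats were below it, the ADQ rat 4005 by less than 1 read.

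The mean of AV was 7.33 times that of YNG, that of AA 5.37 times and that of ADQ 4.98 times. On the log2(value + 1) scale, which averages logs and whose pseudocount draws values near 0 together, the differences were 3.25 (SE 0.37) for AV, 2.79 (SE 0.38) for AA and 2.74 (SE 0.38) for ADQ. The older groups share the YNG rats as their reference, so these 3 values are not independent. For the mean of the 3 groups the difference was 2.93 (SE 0.31), on values that chose the gene and may thus be too large. A pseudocount of 5 in place of 1 lowered it to 1.96. Without V6 it was 3.20 and without V1 2.70, the extremes of leaving out 1 rat. Within the lower-numbered rats it was 3.11 and within the higher-numbered rats 2.61.

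**Figure D1:**
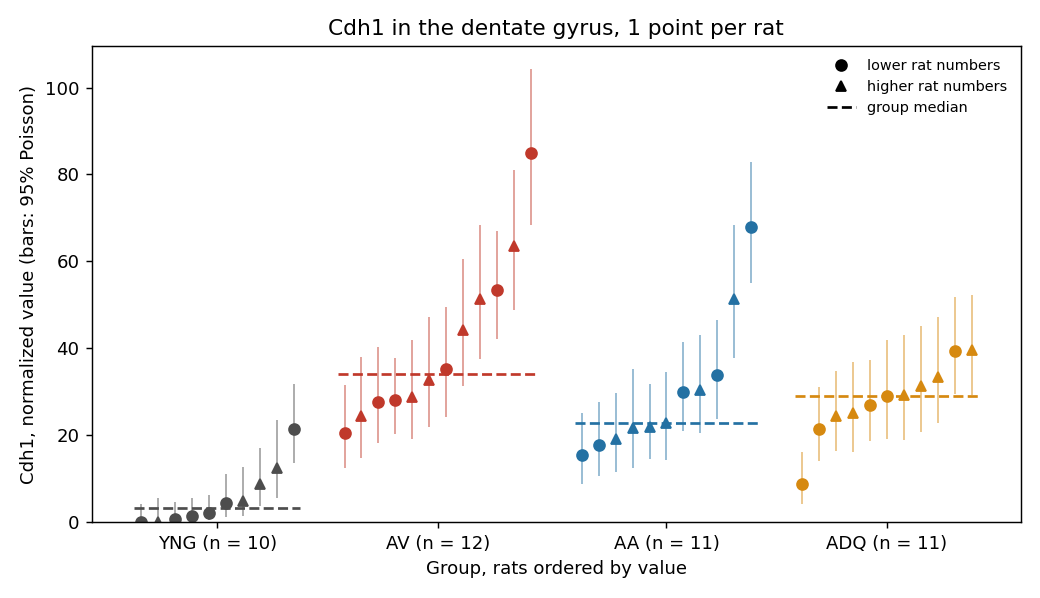
Normalized Cdh1 value of every rat (y axis) by group (x axis), ordered within each group, with exact 95% Poisson intervals that cover counting error only, circles for lower and triangles for higher rat numbers, and dashed lines at the group medians. The YNG median is 3.21, and the older medians are 34.01, 22.8 and 28.9. Rat V6 (21.4) reaches into the range of all older groups, and V11 (12.4) lies above the ADQ rat 3994 (8.80) only.

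The older groups were compared to ask whether the treatments changed Cdh1. The choice of the gene bears on this in part, since a gene that was at the YNG level in AA or ADQ would not have been picked. AV was highest by mean and by median, but AA and ADQ changed places between these orders. AA minus AV was -0.46 on the log2 scale (95% interval -1.18 to 0.27, limma p = 0.213, adjusted p = 0.999). ADQ minus AV was -0.50 (95% interval -1.23 to 0.23, limma p = 0.172, adjusted p = 0.724). AA minus ADQ was 0.05 (95% interval -0.70 to 0.79, limma p = 0.903, adjusted p = 0.995). Of all genes tested, 4.51%, 9.32% and 4.53% were called in these 3 comparisons, and none after adjustment by limma. By this fit no pair of older groups passed the threshold. The intervals still include a fall to 0.440 of the AV level for AA and to 0.426 for ADQ, so the groups were not shown to be alike.

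The limma fit shares 1 estimate of the spread over all groups, and the log2 SD was 1.53 in YNG against 0.60 (AV), 0.63 (AA) and 0.56 (ADQ). With the 34 older rats alone, a setting chosen after seeing the data, ADQ minus AV passed the unadjusted threshold (limma p = 0.0469, adjusted p = 0.532). A permutation test of the same difference (two-sided) gave p = 0.0495, and 0.135 after adjustment over the 3 pairs. For AA minus AV the permutation p was 0.0898 (adjusted 0.135), and for AA minus ADQ 0.864. Within the lower-numbered rats ADQ minus AV was -0.69 and within the higher-numbered rats -0.35, with limma p = 0.249 and 0.417. AA minus AV was -0.36 and -0.54 in the same order (limma p = 0.542 and 0.217).

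The spread between rats is set beside counting error here without a test. Counting error alone corresponds to an SD of 6.41 in AV, where the observed SD was 19.1. In AA the values were 5.32 and 16.0, and in ADQ 5.10 and 8.62. The AV rats 3989 (84.9) and 4571 (63.5) and the AA rats 3996 (67.8) and 4107 (51.5) were the highest of their groups, and no ADQ rat exceeded 39.6. Across the older rats r between Cdh1 and the estimated reads was 0.163 (rho 0.0964, n = 34).

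The genes whose values followed Cdh1 most closely from rat to rat were then listed, over the 34 older rats and the 13707 genes with a mean of at least 20 in them. These correlations describe bulk libraries that share their tissue composition and scaling, and they chose the genes, so no p is attached. Pearson's r ranged from -0.485 to 0.472 between the 5th and the 95th percentile of all these genes. The highest was that of Otud7b, a deubiquitinase, at 0.831. Next came Slc44a1, a choline transporter (0.798), Pogk (0.783), Gab2, a docking protein of receptor tyrosine kinases (0.774), LOC102556092 (0.773), Tgfa, a ligand of the EGF receptor (0.762), and Ptpn11, the phosphatase SHP2 that binds Gab2 (0.760). The list went on with Ankrd40 (0.748), Cnp, an enzyme of myelinating cells (0.744), Csrp1 (0.742), Gna12, a G protein subunit (0.735), Trpv6, a calcium channel (0.735), Adamts4, a secreted protease (0.732), Cdr2 (0.727) and Enpp4 (0.726). The next gene outside the list had an r of 0.724.

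At the other end stood Fmnl1, a formin (-0.775), Trim9, a ubiquitin ligase of neurons (-0.774), Arhgap10 (-0.768), Unc5a, a netrin receptor (-0.759), and Pitpnm2 (-0.753). The next gene had -0.752. In all, 38 genes had an r of at least 0.7 and 20 an r of -0.7 or below.

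The choice of genes depended in part on 4 rats. The AV rats 3989 and 4571 and the AA rats 3996 and 4107 were high in Cdh1 and stood apart in oligodendrocyte markers. Without them, a setting chosen after seeing the data, r of the first 15 genes lay between 0.454 and 0.681 and r of the last 5 between -0.748 and -0.525. Otud7b stayed at 0.681 and Arhgap10 at -0.748. With Spearman's rank correlation 4 of the 15 were shared with the first 15, and without the highest and the lowest Cdh1 rat 8 were shared. Rescaled to equal totals, 14 of the first 15 were shared but 0 of the last 5.

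Within the treatment groups, r of the 15 genes lay between 0.767 and 0.929 in AV and between 0.729 and 0.885 in AA. In ADQ the range was wider, from 0.194 for Cnp to 0.798 for Gab2. For 7 of the 15, r was at least 0.5 in each of the 3 groups. These were Otud7b, Pogk, Gab2, LOC102556092, Tgfa, Trpv6 and Cdr2. Arhgap10 was the gene of the other end with the closest relation in ADQ (-0.889).

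The 10 YNG rats had no part in this choice. There, r of the 15 genes was positive throughout, from 0.367 for LOC102556092 to 0.885 for Adamts4, against 5th and 95th percentiles of -0.571 and 0.575 over all genes. Otud7b, Pogk, Gab2, Ptpn11, Cnp and Adamts4 lay above the 95th percentile, and the others of the 15 below it. For the 5 genes at the other end r was negative throughout, from -0.517 for Arhgap10 to -0.303 for Pitpnm2, and none lay below the 5th percentile. All of these rest on Cdh1 values of 0 to 24 reads, the highest in V6, which also had the highest summed oligodendrocyte markers in YNG.

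**Figure D2:**
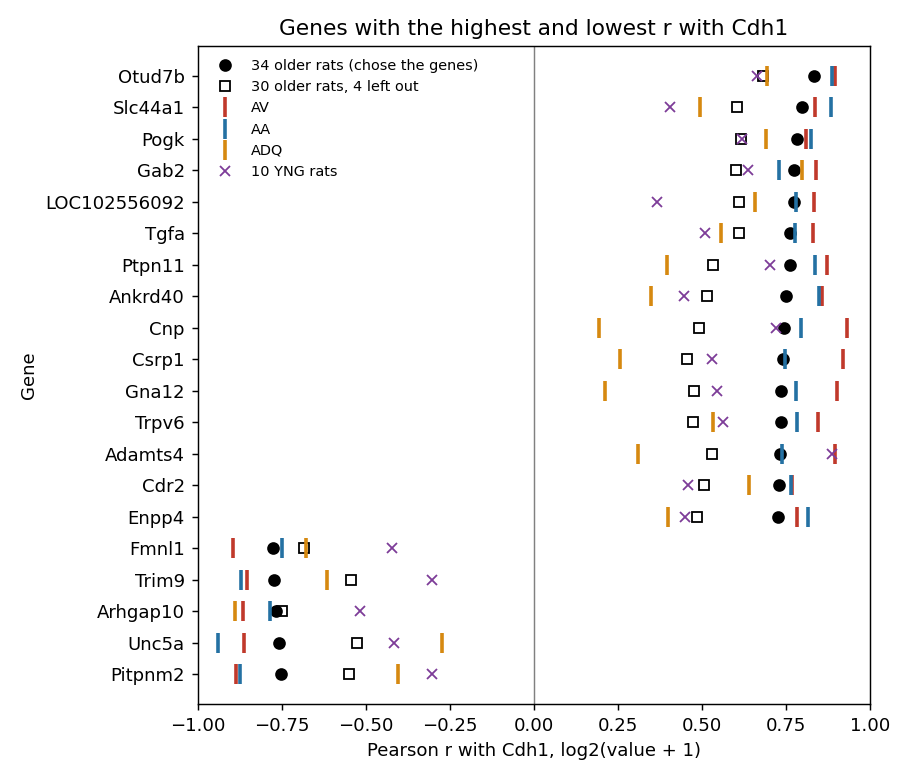
Pearson's r with Cdh1 (x axis) for the 15 highest and 5 lowest genes (y axis), over the 34 older rats that chose them, the same rats without 4, each older group, and the 10 YNG rats. The first 15 genes stay above 0 and the last 5 below 0 in every set, and in the ADQ rats r of Cnp is 0.194.

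None of the 15 genes rose as Cdh1 did. Compared to YNG, 3 of them were higher in the older rats at the unadjusted threshold and also by adjusted p, against 15.7% and 6.65% of all genes, and none was lower. Otud7b had a median of 670 in YNG (514 to 1015) and of 848 in the older rats (596 to 1640), a log2 difference of 0.35 (SE 0.12, limma p = 0.00457, adjusted p = 0.0391). Tgfa had a median of 236 in YNG (195 to 302) and of 287 in the older rats (203 to 455), and it rose by 0.29 (SE 0.09, adjusted p = 0.033). Enpp4 rose by 0.31 (SE 0.09, adjusted p = 0.0214). The groups overlapped for all 3. Over the 15 genes the median log2 difference was 0.18, and it ranged from -0.08 for Ankrd40 to 0.35, against a median of 0.00 over all genes. The 5 genes at the other end had neither a rise nor a fall past the threshold.

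Cell type markers were compared with Cdh1 next, as 20 lists scored by their mean log2 value, with r over the 34 older rats and adjustment over the 20. The closest relation was with oligodendrocytes, the myelin-forming cells of the brain. All 9 markers were tested and correlated with Cdh1, from 0.548 for Opalin to 0.744 for Cnp, with Mobp second at 0.708. For their score r was 0.705 (permutation p = 1e-05, the smallest that can be given, adjusted p = 0.0002) and rho 0.488 (adjusted p = 0.039), and without the 2 rats farthest from the median r was 0.575. It was 0.781 within the lower-numbered and 0.719 within the higher-numbered rats.

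The pooled value rests in large part on the 4 rats named above, whose summed markers of 152650 to 182150 stood apart from 55928 to 114030 in the other 30 older rats. Over those 30 rats r was 0.366 (rho 0.256, permutation p = 0.0487, not adjusted). By group, r in AV was 0.889, and 0.747 without the 2 high rats. In AA it was 0.760, but -0.03 without its 2 high rats. In ADQ it was -0.11, where the summed markers covered the narrow range of 62892 to 81407. The difference in r between AV and ADQ was 1.002 (permutation p = 0.00111, adjusted over 3 pairs 0.00333), and it was 0.860 without the high AV rats (permutation p = 0.00493). Between AA and ADQ it did not pass the adjustment (permutation p = 0.0389, adjusted 0.0583). The size of r depends on the spread of the score, which had an SD of 0.474 in AV and 0.0981 in ADQ. The slope of Cdh1 on the score, compared after seeing the data, was 1.13 (SE 0.18) in AV, 1.01 (SE 0.29) in AA and -0.65 (SE 1.89) in ADQ, in log2 units of Cdh1 per log2 unit of the score. No pair of slopes passed a test of the difference (permutation p = 0.209 for AV and ADQ, 0.302 for AA and ADQ and 0.723 for AV and AA, adjusted over 3 pairs 0.453, 0.453 and 0.723). In YNG r was 0.756 (permutation p = 0.00651, adjusted 0.0651, n = 10), where V6, the rat with the highest Cdh1, also had the highest summed markers (123950). The slope in YNG was 3.515 (SE 1.076), and its difference from the older groups was not tested.

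**Figure D3:**
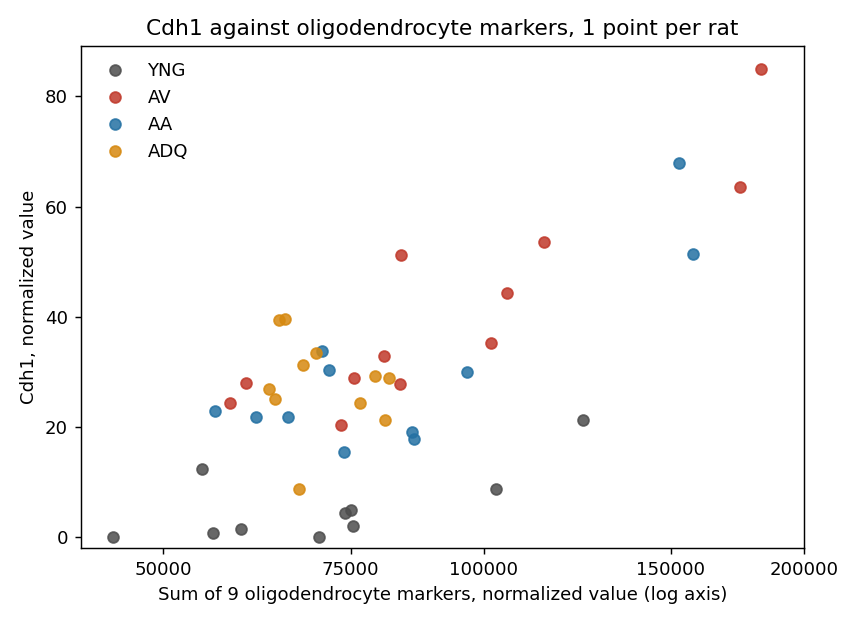
Normalized Cdh1 value (y axis) against the sum of 9 oligodendrocyte markers on a log axis (x axis), 1 point per rat, by group. The 4 highest sums belong to 2 AV and 2 AA rats with Cdh1 values of 51.5 to 84.9, the ADQ rats lie between sums of 62892 and 81407, and YNG rats lie below older rats of similar sum.

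Oligodendrocyte markers were also higher in the older rats, but by far less than Cdh1. Of the 9, 5 were higher than in YNG (2 by adjusted p) against 15.7% of all genes, and the median log2 difference was 0.29. By group, AV had 8 higher markers, AA 4 and ADQ 2, against 10.6%, 12.6% and 13.5% of all genes. Opalin rose by 0.67 (adjusted p = 0.029). The median summed level was 71988 in YNG against 83542 (AV), 73890 (AA) and 67706 (ADQ). Between ADQ and AV, 5 of the 9 were lower in ADQ, against 5.9% of all genes, and none by adjusted p.

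Set against this sum, Cdh1 was again lower in YNG than in most older rats, a comparison on which the gene was chosen and which is given without a test. Per 10000 of summed marker value, Cdh1 was 0.679 ± 0.763 (SD, n = 10) in YNG, with a range of 0 to 2.28. It was 4.14 ± 0.862 (SD, n = 12) in AV (2.78 to 6.13), 3.38 ± 0.959 (SD, n = 11) in AA (2.07 to 4.79) and 4.02 ± 1.42 (SD, n = 11) in ADQ (1.31 to 6.15). All 12 AV rats, 8 of 11 AA rats and 10 of 11 ADQ rats were above the highest YNG rat. The spread between rats narrowed in AV, from a CV of 46.2% for Cdh1 to 20.8% for the ratio, and in AA from 53.1% to 28.3%, while in ADQ it went from 30.7% to 35.2%. With the score as a covariate, a setting chosen after seeing the data, the log2 difference between older rats and YNG was 2.47 in place of 2.93. In this fit ADQ minus AV became -0.07 (limma p = 0.828), AA minus AV -0.27 (limma p = 0.367) and AA minus ADQ -0.20 (limma p = 0.508). The fit takes 1 slope on the score for all 4 groups. Fitted by group, the slope was 3.515 (SE 1.076) in YNG against 1.13 in AV, 1.01 in AA and -0.65 in ADQ, so a common slope was not shown. In these bulk samples, more cells of a type and more RNA per cell cannot be told apart.

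**Figure D4:**
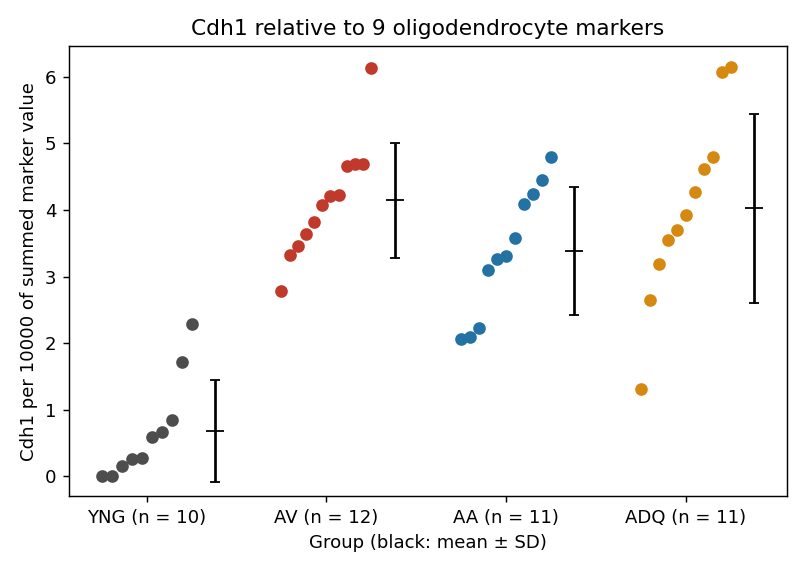
Cdh1 per 10000 of the summed value of 9 oligodendrocyte markers (y axis) for every rat by group (x axis), with the mean and SD in black. The YNG rats lie between 0 and 2.28, all AV rats at 2.78 or above, and 3 AA rats and 1 ADQ rat within the YNG range.

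Other lists moved with Cdh1 less closely. The score of dentate granule cells fell as Cdh1 rose (r = -0.582, adjusted p = 0.0033), with Sipa1l2 at -0.584 and Prox1 at -0.583. Its r was negative in AV (-0.821) and AA (-0.669) but 0.144 among ADQ rats, and without the 2 rats farthest from the median it was -0.462. The mast cell list, of which 2 genes were tested, had r = -0.555 (adjusted p = 0.00667), with Hdc at -0.544, and -0.359 without 2 such rats. Of its other genes, Tpsab1 and Ms4a2 were too low to be tested, and Cpa3, Mcpt1, Tpsb2 and Fcer1a were not found by symbol. Mast cells themselves were thus not shown. Positive relations past the adjustment were found for pericytes and smooth muscle (0.524, adjusted p = 0.0079, with Tagln at 0.641), CA1 pyramidal cells (0.474, adjusted p = 0.014), microglia (0.473, adjusted p = 0.014), astrocytes (0.472, adjusted p = 0.014) and endothelial cells (0.463, adjusted p = 0.018). Without the 2 farthest rats these values were 0.428, 0.460, 0.219, 0.393 and 0.330 in the same order. Within ADQ they were 0.358, 0.130, -0.420, -0.156 and -0.331, so the last 3 had the opposite sign there, and differences between groups were not tested. By rank correlation, the oligodendrocyte list and the 2 tested genes of the mast cell list alone passed (adjusted p = 0.039 for both). In YNG, astrocytes were the list that passed (r = 0.876, adjusted p = 0.0194).

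The remaining lists did not pass. Their r was 0.353 for oligodendrocyte precursors, 0.332 for interneurons, 0.327 for ependymal cells, 0.317 for red blood cells, 0.267 for the arachnoid barrier, 0.249 for meningeal fibroblasts and for T and NK cells, 0.0965 for choroid plexus, 0.0772 for immediate early genes and 0.0453 for border macrophages and dendritic cells. It was -0.137 for immature neurons and progenitors and -0.295 for CA3 pyramidal and mossy cells. No B cell marker was high enough to be tested.

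Markers of the cells around the brain that carry E-cadherin did not pass the test over the 34 older rats. For the arachnoid barrier, r was 0.526 in AV, 0.461 in AA and 0.0575 in ADQ. In YNG its r was 0.697 (permutation p = 0.0258, adjusted 0.103) and rho 0.802 (permutation p = 0.00746, adjusted 0.0746). For choroid plexus r in YNG was 0.379 (permutation p = 0.28, adjusted 0.431). Of 10 arachnoid barrier markers, 5 were tested, and none of these was higher or lower in the older rats, against 32.4% of all genes called. Their summed level was 869 to 1365 in YNG, 855 to 1587 in AV, 954 to 1360 in AA and 947 to 1423 in ADQ. Dpp4 had a mean of 4.94 in YNG and 4.03 in the older rats, Slc47a1 of 1.003 and 1.37, and Wnt6 of 2.68 and 2.82, all too low to be tested. Bnc2 and Krt18 were too low as well, so the score and the sums rest on the 5 other genes of the list. Arachnoid barrier cells themselves were thus not shown, and their part in the Cdh1 values was not tested. Of 10 choroid plexus markers, 5 were tested and none was called. The summed level of those 5 was 46.4 to 166 in YNG, 74.9 to 1408 in AV, 55.9 to 974 in AA and 54.2 to 381 in ADQ. Folr1 (r = 0.503 with Cdh1) and Tmem72 (r = 0.508), the choroid plexus markers that followed Cdh1 most closely, had means of 4.77 and 3.51 in the older rats. The part of cell composition in the Cdh1 values was not tested.

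The other cadherins gave no rise of that size. Of 21 classical and type II cadherins besides Cdh1, 18 were tested, 4 were higher in the older rats and 1 was lower (27.8% of those tested, against 32.4% of all genes), 3 of them by adjusted p. The median log2 difference of the list was 0.03. Cdh2, the N-cadherin of neurons, was level, with 2253 ± 180 (SD, n = 10) in YNG and a mean of 2278 in the older rats (log2 0.01, limma p = 0.755). Cdh18, a neuronal type II cadherin, rose by 0.74 (SE 0.20, adjusted p = 0.0148), from a mean of 96.1 in YNG to 163 in the older rats. Cdh5, the VE-cadherin of endothelium, rose by 0.59 (SE 0.17, adjusted p = 0.0221), with a mean of 113 in YNG and of 227 (AV), 161 (AA) and 138 (ADQ) in the older groups. It was lower in ADQ than in AV (log2 -0.53, limma p = 0.0102), and was the 1 cadherin of 18 called there, against 9.32% of all genes. Between AA and AV, 1 of the 18 was lower in AA, against 4.51% of all genes called. Between AA and ADQ, 1 was higher and 4 were lower in AA, against 4.53% of all genes called. None of these passed by adjusted p.

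Cdh3, or P-cadherin, the epithelial cadherin that lies next to Cdh1 on the chromosome, rose by 0.64 (SE 0.21, limma p = 0.00368, adjusted p = 0.0358). Its mean was 7.04 ± 3.003 (SD, n = 10) in YNG against 11.4 (AV), 12.8 (AA) and 9.83 (ADQ). Across the older rats it did not follow Cdh1 (r = -0.192). Cdh4 fell by 0.30 (adjusted p = 0.0501), and Cdh19, known from glia of peripheral nerve, rose by 0.42 (adjusted p = 0.092, r = 0.521 with Cdh1). On the other side of Cdh1 in the RefSeq annotation of assembly GRCr8, which was used for the order of genes only, lie Tango6 (log2 -0.18, limma p = 0.0655) and Has3, a hyaluronan synthase (log2 0.06, limma p = 0.632). The pseudogene Rpl28l1, beyond Cdh3, was not analysed here.

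Genes of the adherens junction moved both ways and by less than Cdh1. All 20 adherens junction partners were tested, and 7 were higher and 3 lower (3 and 3 by adjusted p), 50.0% of the list against 32.4% of all genes. Vcl, or vinculin, rose by 0.50 (SE 0.11, adjusted p = 0.00476). Pard3, a polarity protein, fell by 0.26 (adjusted p = 0.00913), Actn4, an actin crosslinker, fell by 0.34 (adjusted p = 0.0182), and Ctnna2, the α-catenin of neurons, fell by 0.24 (adjusted p = 0.0363). Of the catenins that bind the tail of E-cadherin, Ctnnd1 (p120-catenin) rose by 0.24 (adjusted p = 0.0464) and Ctnnb1 (β-catenin) by 0.24 (limma p = 0.0262, adjusted p = 0.102), while Jup, or plakoglobin, had a log2 difference of -0.01 (limma p = 0.881). Within the higher-numbered rats 2 of the 20 were called, and within the lower-numbered rats 11. Of all 15598 genes, 1375 and 5925 were called in these fits in the same order, against 5058 with all rats.

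Other epithelial genes moved both ways. Of 26, 16 were tested, and 3 were higher and 2 lower (31.2% against 32.4%), 1 of them by adjusted p. That gene was Cdh3, which is also on the list of cadherins. Spint1, a protease inhibitor of epithelium, rose by 0.44 (adjusted p = 0.0578), and its target St14, or matriptase, by 0.53 (adjusted p = 0.0827, r = 0.611 with Cdh1). Cldn1, a tight junction claudin, fell by 0.38 (adjusted p = 0.0811). Without V6, the YNG rat highest in Cdh1, 8 of the 16 were called, but the share of all genes called without V6 was not computed. Krt18, Krt7, Esrp2 and Ovol2 were too low to be tested, and Krt19, Cldn7, Esrp1, Pkp2, Rab25 and Elf3 are not in the table used here.

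**Figure D5:**
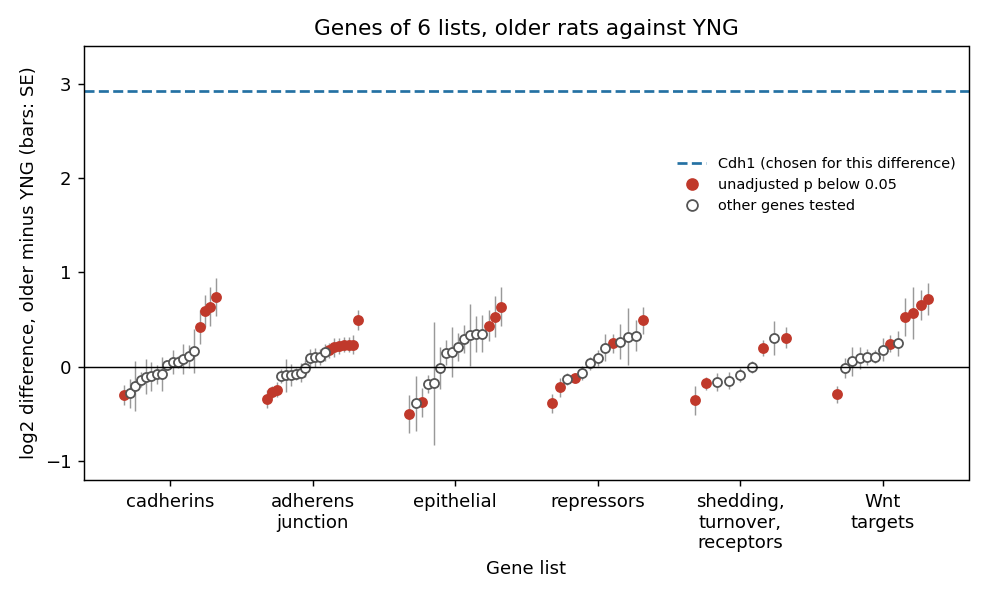
Log2 difference between older rats and YNG (y axis, bars are SE) for every tested gene of 6 lists (x axis), filled where the unadjusted p was below 0.05, with the Cdh1 difference of 2.93 as a dashed line. All list genes lie between -0.50 and 0.74, and each list holds genes that were higher and genes that were lower.

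The repressors of the E-cadherin gene moved both ways. Of 15, 13 were tested, and 2 were higher and 3 lower (38.5% against 32.4%), with 1 each by adjusted p. Twist1 rose by 0.49 (SE 0.14, adjusted p = 0.0213), from 85.8 ± 16.9 (SD, n = 10) in YNG to a mean of 123 in the older rats, and r with Cdh1 was -0.586. Tcf4, or E2-2, fell by 0.38 (SE 0.10, adjusted p = 0.0135). Zeb2 rose by 0.25 (adjusted p = 0.0764) and Ctbp1, a corepressor, fell by 0.12 (adjusted p = 0.0933). Rescaled to equal totals, which moved the median of all genes by 0.13, Ctbp1 was the 1 called gene of the 6 lists whose direction turned. Without V1 or without V2, 3 of the 13 were called, with the share of all genes not computed for these fits. When the largest row stood for each gene, 3 were called too, and 4800 of all 15515 genes.

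Of 14 genes of E-cadherin cleavage, turnover and binding, 9 were tested, and 2 were higher and 2 lower (44.4% against 32.4%). Adam10, the protease that sheds E-cadherin, rose by 0.31 (adjusted p = 0.0483). Arf6, a GTPase of junction uptake, rose by 0.20 (adjusted p = 0.0954), and Mmp14, a membrane protease, fell by 0.35 (adjusted p = 0.103).

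Genes of Wnt signaling were the last list, among them targets and partners of β-catenin, which E-cadherin binds at the membrane. Its counts are thus not those of β-catenin targets alone. Of 16, 13 were tested, and 5 were higher and 1 lower (46.2% against 32.4%), with 2 and 1 by adjusted p. Lef1, a transcription factor of Wnt signaling, rose by 0.72 (SE 0.17, adjusted p = 0.00837), and Notum, a secreted Wnt inhibitor, by 0.66 (SE 0.16, adjusted p = 0.00993). Ccnd1, or cyclin D1, fell by 0.29 (adjusted p = 0.0347) and Myc rose by 0.24 (adjusted p = 0.0532). In ADQ against AV, 5 of the 13 were lower (5.9% of all genes were) and none by adjusted p.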

How the data were processed

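Poly(A) RNA was sequenced on the Ion platform, 1 library per rat. The authors aligned the reads to rn6 with STAR in Partek Flow (version 2.5.3a of STAR in the submitters' processing notes), scaled gene counts by the median ratio and tested them with DESeq2. The deposited values are signal, read counts per row divided by a size factor, in 24694 rows. The rows of a gene were summed. Within 0.05 reads, low values of most genes but not all were whole reads, so no count model was used. Values were taken as log2(value + 1). Genes with a mean of at least 5 were fitted in 1 fit of 44 rats and 4 groups with limma 3.58.1 (trend, two-sided) in R 4.3.3 with data.table version 1.17.8, and Benjamini-Hochberg adjusted. Permutations and plots were made in Python 3.11.15 (scipy 1.17.1, pandas 2.3.3, numpy 2.4.6, matplotlib 3.10.9), with 100000 resamples per permutation test. Intervals of reads are exact Poisson intervals (95%) and cover counting error only. The fit was tested on simulated data.

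Cdh1, the 6 gene lists and the 21 marker lists were chosen with earlier results of these data known. Genes were named by a rule: Cdh1, the 15 highest and 5 lowest r among genes with a mean of at least 20 in older rats, of each gene list at most 4 with the smallest p below 0.05, Cdh2, Cdh3 and Cdh5, of each marker list at most 2 by r, and 2 neighbours on each side. Opalin, Cdh19, Ctnnd1, Ctnnb1, Jup, Dpp4, Slc47a1, Wnt6 and the genes listed as not tested were named outside it, after their values were seen. Some genes that the rule names are not reported here. Alternatives varied the pseudocount, the filter, the scaling, the rows of a gene, the robust option, array weights, the number series and each rat in turn. The score of the oligodendrocyte markers as a covariate, the older rats alone, leaving out 4 rats and slopes in place of r were added after seeing the data. Cdh1 sequence was not used here.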

Additional observations from a re-analysis of the deposited data

Results flagged for a closer look

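Pearson's r between Cdh1 and the oligodendrocyte score differed between 2 groups of older rats by a permutation test of the difference. It was 0.889 in AV and -0.113 in ADQ, a difference of 1.002 (permutation p = 0.00111, adjusted over 3 pairs 0.00333). The SD of the score was 0.474 in AV and 0.0981 in ADQ, and r depends on that spread. The slopes of Cdh1 on the score, 1.13 (SE 0.18) in AV and -0.65 (SE 1.89) in ADQ, did not pass a test of their difference (permutation p = 0.209, adjusted 0.453), so a different relation was not shown. No value of the 10 YNG rats, for Cdh1, the 20 correlated genes, the summed oligodendrocyte markers or their ratio, stood apart from the others by Dixon's criterion, and the differences of Cdh1 between older groups did not pass a test of their change between the number series (limma p = 0.806, 0.657 and 0.501).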

How the results depend on the processing

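Cdh1 was chosen for its rise, so its higher value in the older groups under all alternatives run is no sign of stability. With a pseudocount of 5, the log2 differences were 2.24 in AV, 1.84 in AA, 1.80 in ADQ and 1.96 for their mean, and all other settings moved them by less than 0.899, the log2 SD between rats pooled over the 4 groups. With the oligodendrocyte score as a covariate, AV minus YNG was 2.58, a move larger than the SD within AV (0.60). That fit takes 1 slope on the score for all groups. Rescaling to equal totals moved the median of all genes by 0.10 to 0.15, and Cdh1 by less than that. No call between older groups was gained by leaving out 1 rat, where AA minus AV ranged from -0.58 to -0.35, ADQ minus AV from -0.58 to -0.35, and AA minus ADQ from -0.10 to 0.12. ADQ minus AV passed the unadjusted threshold with the older rats alone, where the difference is the same -0.50 (limma p = 0.0469) and the YNG rats no longer enter the spread. AA minus ADQ, close to 0, turned to -0.24 with array weights, -0.19 in the higher-numbered rats and -0.20 with the oligodendrocyte score as a covariate.

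The counts of called list genes depended on the threshold and on the number series. By adjusted p they were 3 cadherins, 6 adherens junction partners, 1 epithelial gene, 2 repressors, 1 gene of cleavage and turnover, and 3 Wnt genes. That threshold called 14.9% of all genes. Within the higher-numbered rats the counts at the unadjusted threshold were 3, 2, 4, 2, 1 and 3 in that order. Within the lower-numbered rats they were 5, 11, 5, 4, 4 and 6. Of all 15598 genes, 1375 were called in the higher-numbered and 5925 in the lower-numbered rats, against 5058 with all rats. The lower counts in the higher-numbered rats were thus not particular to the lists. That fit held 4 YNG rats and the lower-numbered fit 6, and why the series differ was not tested. With the largest row of each gene, 3 repressors were called, and 4800 of all 15515 genes. The 15 genes that followed Cdh1 shared 4 genes with the first 15 by Spearman's correlation and 8 without the highest and the lowest Cdh1 rat. No paired analysis was possible because the rat numbers are not shared between groups. Low reads limit Cdh1 in YNG most, with 0 to 24 reads per rat.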
